A study of Homo sapiens with 6 samples.

Results

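A set of 8 human genes was followed through the m6A peaks of HEK293T cells: AHNAK, AHNAK2, SRRM2, SON, BRCA1, BRCA2, MKI67 and FAT1. They were proposed as genes with giant internal exons and were chosen by intervals on the hg19 genome, with earlier results on these same peaks in view, among them the widths and scores of the widest regions. A peak belonged to a gene when its centre lay in the gene's interval and its strand was that of the gene. Overlapping peaks of the lists on 1 strand were joined into regions, and 27 of the 25737 regions of the series fell in the 8 genes. Because measured peaks took part in the choice, the counts and widths below are descriptions, and none of them was tested.

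HEK293T is a line of human embryonic kidney cells carrying the large T antigen of SV40. The cells were wild type, with no treatment named in the labels, and all samples came from this 1 line. In MeRIP-seq an antibody against N6-methyladenosine (m6A) pulls down RNA fragments, and the sequenced pull-down (IP) is set against the input RNA. The 6 samples were IP and input of 3 repeats, and each repeat has 1 deposited peak list, of 21286 peaks (MeRIP 1), 19851 peaks (MeRIP 2) and 20010 peaks (MeRIP 3). Whether the repeats were separate cultures is not said, so a spread over lists may be technical. Each listed peak has a score from 50 upward, with a ceiling of 3100 that 17.9 ± 0.373% of a list's peaks reach or pass (SD, n = 3 lists). The scale of the score is read from the values alone, which have the form of a log p-value of IP over input. Such a score may grow with coverage and width as well as with methylation, so a ratio of scores is not a fold of methylation. Read depth is unknown from these lists, and no expression level was measured here, so a gene with few peaks cannot be told apart from a gene with little RNA.

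In mRNA, m6A is laid down mainly by the METTL3 and METTL14 complex at short adenosine-centred motifs. It is known to gather around stop codons, in the last exon and in unusually long internal exons, while short internal exons carry little of it; the proteins that coat RNA beside splice junctions are thought to keep the methyltransferase away there. Most coding exons are short. The genes described here code for very large proteins, and several are textbook cases of a protein encoded largely by 1 exon. No hg19 sequence or exon annotation was used here, so exons, stop codons and methylation motifs were not located, and positions are given along each gene's interval, from its upstream to its downstream bound on the coding strand.

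The genes fell into those with a very wide region and those without. AHNAK, SRRM2, SON, MKI67 and FAT1 held 6 regions of 3000 bp or more, and no region of AHNAK2, BRCA1 or BRCA2 was that wide. All 6 wide regions were in every list, as were 91.8% of all regions of that width. For AHNAK2, BRCA1 and BRCA2 the lists thus show no peak of the size that the name giant internal exon implies. Among all regions of the series 3.19% were 3000 bp or wider; the 6 of 27 here (22.2%, 95% Wilson interval 10.6 to 40.8%) reflect the choice of the genes and say nothing more. Per list, the 8 genes held 23.7 ± 2.52 peaks, which is 0.116 ± 0.00888% of a list's peaks and 0.356 ± 0.0123% of its covered bases. The 6 wide regions made up 44986 of those bases in each list, or 80.7 ± 3.89% of the length covered by the peaks of these genes.

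**Figure D1:**
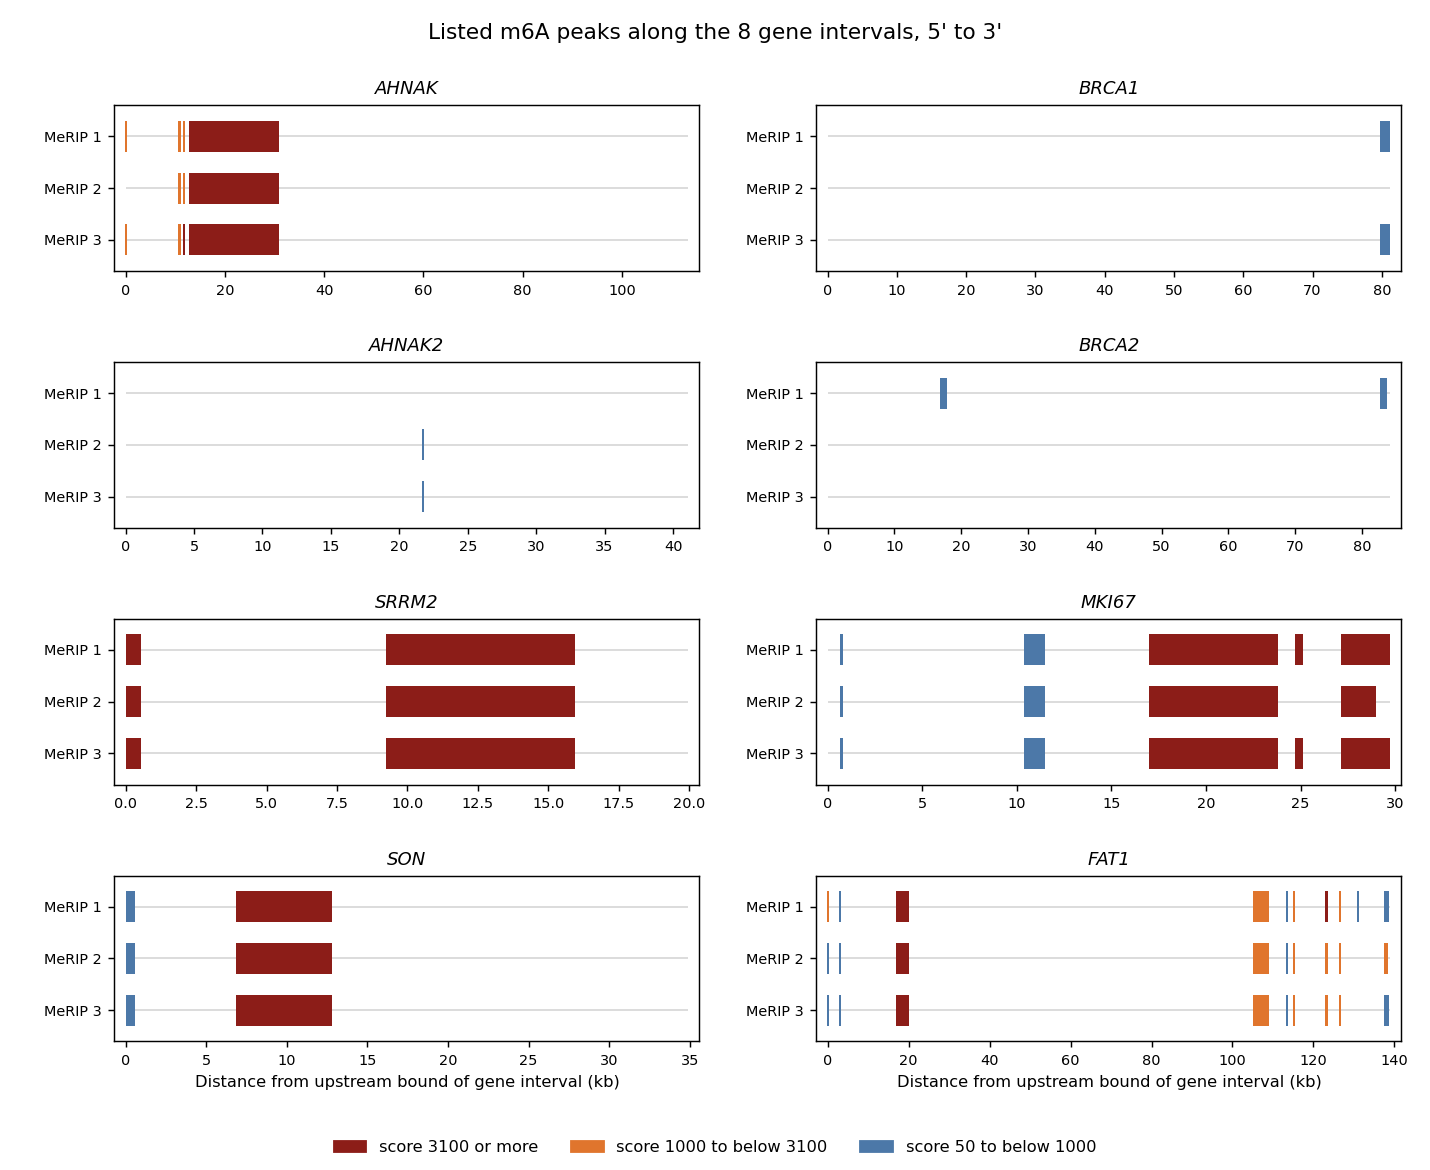
Peaks of the 8 genes in each list, drawn by distance in kb from the upstream bound of the gene's interval, coloured by score; the narrowest peaks are drawn wider than to scale so that they can be seen. Wide blocks with the same edges in MeRIP 1, 2 and 3 stand in AHNAK, SRRM2, SON, MKI67 and FAT1, and AHNAK2, BRCA1 and BRCA2 show only scattered peaks.

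AHNAK encodes a giant scaffold protein found under the plasma membrane and in the cytoplasm, built mostly of repeats. Its interval (hg19 chromosome 11, 62201010 to 62314332, minus strand) held 4 regions. The fourth and last of them, at 62283374 to 62301546, spanned 18173 bp and was the widest region of the whole series. Its score was 3100 in each of the 3 lists. It made up 97.1% of all bases in regions of AHNAK and was 2.65 times as wide as the next widest region among these genes, in MKI67.

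The other AHNAK regions were small and lay upstream of it. The third region, 188 bp wide, ended 928 bp before the giant one and scored 3032 in MeRIP 1, 1999 in MeRIP 2 and 3215 in MeRIP 3. A further 754 bp upstream the second region, 163 bp wide, scored 1592, 1234 and 1981 in the same order. Both had the same edges in every list, and in both the score of MeRIP 2 was the lowest. The first region, 201 bp wide, ran from the upstream bound itself, scored 1192 in MeRIP 1 and 1231 in MeRIP 3 and had no peak in MeRIP 2. Beyond the giant region no peak was listed in the remaining 82.4 kb of the interval. The bounds of the interval were not checked against an hg19 annotation. Where the AHNAK peaks lie along its transcript was therefore not determined.

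AHNAK2, a relative of AHNAK with a similar repeat-rich protein, showed none of this. The only AHNAK2 region was 102 bp wide (chromosome 14, 105422925 to 105423026, minus strand), 21.7 kb from the upstream bound. It scored 183 in MeRIP 2 and 232 in MeRIP 3 and was absent from MeRIP 1. These scores were higher than those of 32.4% and 36.7% of the peaks in their lists, so the peak was among the weaker ones in both. In the GRCh38.p14 gene table AHNAK2 overlaps another protein-coding gene, PLD4. Neither the strand of PLD4 nor the place of that overlap was compared with the peak.

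SRRM2 and SON encode large proteins rich in serine and arginine that form the core of nuclear speckles, the storage bodies of splicing factors. Each had 2 regions, 1 at the upstream bound and 1 wide region inside the interval, and all 4 had the same edges in all 3 lists. In SRRM2 the wide region (chromosome 16, 2811562 to 2818262, plus strand) spanned 6701 bp, or 33.6% of the interval, and scored 3100 in every list. Its first region, of 518 bp, began 10 bp inside the upstream bound and also scored 3100 in every list. SRRM2 was thus the only one of the 8 genes whose every listed peak was at the ceiling.

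SON differed from SRRM2 at the upstream end. The wide SON region (chromosome 21, 34921782 to 34927697, plus strand) spanned 5916 bp and scored 3100 in all 3 lists. The first region, of 552 bp, began 4 bp inside the bound and scored 287 in MeRIP 1, 556 in MeRIP 2 and 177 in MeRIP 3. So the highest of its scores was 3.14 times the lowest, with MeRIP 2 on top, while width and edges were identical. The wide region centred at 28.1% of the interval in SON and at 63.1% in SRRM2. No peak was listed downstream of it in either gene, over 22.1 kb in SON and 4.02 kb in SRRM2.

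MKI67 encodes Ki-67, a protein of dividing cells that coats mitotic chromosomes and serves as a marker of proliferation. Its interval (chromosome 10, 129894920 to 129924655, minus strand) was, with that of SRRM2, the most densely covered of the 8: peaks took up 36.1 ± 2.33% of it (SD, n = 3 lists), against 36.2% in SRRM2 in every list and 7.89 ± 0.111% in FAT1. The widest of its 5 regions, at 129900843 to 129907687, spanned 6845 bp with the same edges and a score of 3100 in all lists. Upstream of it lay a region of 1080 bp with scores of 671, 351 and 586 in MeRIP 1, 2 and 3, and a region of 181 bp with scores of 194, 432.5 and 679. The lists took different orders in these: MeRIP 2 was lowest in the wider one and MeRIP 1 in the narrower one, where the highest score was 3.50 times the lowest.

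Downstream of the widest MKI67 region the lists disagreed. The fourth region, 444 bp wide, scored 3100 in MeRIP 1 and in MeRIP 3 but had no peak in MeRIP 2. Peak names carry numbers that rose along each chromosome throughout all 3 lists, and fewer than all numbers are listed. In MeRIP 2 no number was skipped between the neighbouring peaks on either side, so no numbered but unlisted peak lay between them. The last region, ending 5 bp from the downstream bound, scored 3100 everywhere but was 2595 bp wide in MeRIP 1, 1828 bp in MeRIP 2 and 2576 bp in MeRIP 3. Its upstream edge was the same base in each list, and in MeRIP 2 it stopped 767 bp short of its end in MeRIP 1.

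FAT1 encodes a giant cadherin, a cell-surface protein of cell contacts, and its peaks fell in 2 wide regions and several smaller ones. The interval (chromosome 4, 187508930 to 187647870, minus strand) held 10 regions, 9 of them in all 3 lists, with a median width of 426.5 bp. Of the 10, 3 were centred in the first 25% of the interval and 7 beyond 75% of it, with a gap of 84.8 kb between the third and the fourth region. The regions on each side of that gap were the 2 wide ones, of 3283 bp (187627717 to 187630999) and 4068 bp (187538862 to 187542929), and together they made up 66.1% of the bases in FAT1 regions.

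The scores of FAT1 ranged more widely than those of any other gene here. The 3283 bp region scored 3100 in every list. The 4068 bp region scored 2645, 3094 and 2342 in MeRIP 1, 2 and 3 and was the only wide region below the ceiling. Of the smaller regions, that of 802 bp scored 3227, 2688 and 2352 and that of 463 bp scored 2263, 2534 and 2110. As the 3283 bp region was at the ceiling, how far these scores lie from it cannot be read. At the other end stood a region of 170 bp with 78.7, 86.3 and 110 and a region of 138 bp with 80.8 in MeRIP 1 alone. The region of 234 bp differed most between lists, with 350 in MeRIP 1, 83.0 in MeRIP 2 and 309 in MeRIP 3, a 4.22-fold range that was also the largest among the regions of these genes with scores in all 3 lists.

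BRCA1 and BRCA2 encode proteins of DNA repair by homologous recombination, and each is known for a long central exon. Neither had a region in all 3 lists. BRCA1 had 1 region, at the downstream end of its interval (chromosome 17, 41196312 to 41197819, minus strand), 2 bp from the bound. It scored 320 in MeRIP 1, 56.0 in MeRIP 3 and had no peak in MeRIP 2, a 5.71-fold difference between the lists that held it. In MeRIP 3 only 2.84% of peaks scored lower.

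BRCA2 had peaks in MeRIP 1 alone. The first, of 1116 bp (chromosome 13, 32906409 to 32907524, plus strand), lay 16.8 kb from the upstream bound and scored 82.2. The second, of 1087 bp, ended 424 bp from the downstream bound and scored 52.3, just above the lowest score of 50 that any list holds. In MeRIP 1, 12.8% and 1.01% of peaks scored lower than these. Elsewhere in the BRCA1 interval and over the 64.8 kb between the BRCA2 regions no peak was listed. A peak missing from a list may have been called and not listed: all lists hold 22.0% to 26.7% as many peaks as their largest number. In MeRIP 1, 4 numbers were skipped between the BRCA2 peaks. Between the nearest listed peaks on either side of the BRCA2 regions, 18 numbers were skipped in MeRIP 2 and 9 in MeRIP 3. These stretches spanned 1096 kb and 188 kb.

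**Figure D2:**
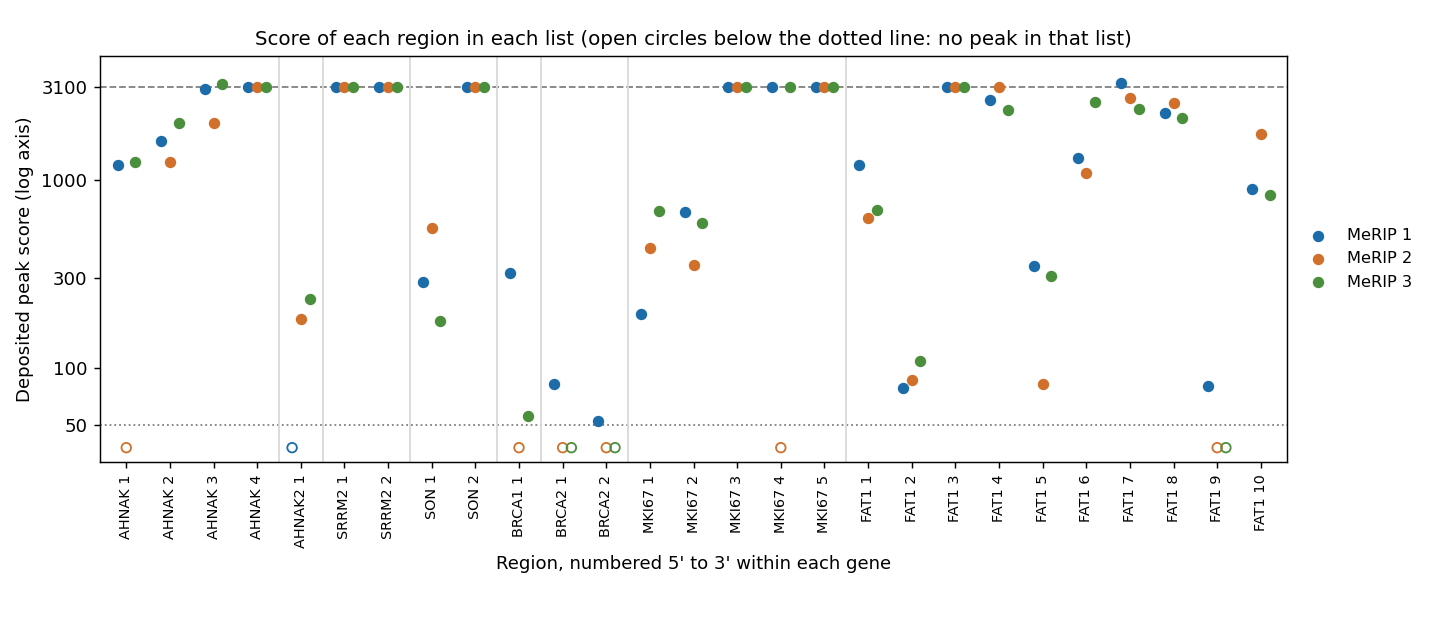
Deposited score on a log axis of each of the 27 regions in each list, with regions numbered from 5' to 3' in each gene; the dashed line is the ceiling of 3100 and open circles under the dotted line at 50 stand for no peak in that list. The points of 7 regions coincide at the ceiling in all 3 lists, and open circles fall mostly on weak regions, apart from the first AHNAK and the fourth MKI67 region.

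Over the 8 genes, 20 of the 27 regions (74.1%, 95% Wilson interval 55.3 to 86.8%) had a peak in all 3 lists, beside 59.3% of all regions of the series. Another 4 were in 2 lists and 3 in 1 list. The 20 lay in 5 genes, those that also held a wide region. Without the 6 wide regions 14 of 21 (66.7%) were in all 3 lists. Among regions of 300 bp or narrower it was 5 of 8 (62.5%), beside 45.1% of such regions in the series. From 1000 bp to under 3000 bp it was 3 of 6 (50%), beside 79.8% of such regions in the series. At the ceiling in every list were 7 of the 27 (25.9%, 13.2 to 44.7%), beside 11.2% of all regions; these were the wide regions of AHNAK, SRRM2, SON and MKI67, the 3283 bp region of FAT1, the first of SRRM2 and the last of MKI67. Widths and scores took part in the choice of the genes, so shares above or below the background are no result about them.

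Some regions were missing from a list. Of 10 absences of a region from a list, 6 were from MeRIP 2, 3 from MeRIP 3 and 1 from MeRIP 1. Over all regions of the series, 36.6% of absences were from MeRIP 2, 35.5% from MeRIP 3 and 27.9% from MeRIP 1, the longest list. The most distinct were the first AHNAK region and the fourth MKI67 region, both with scores above 1000 in MeRIP 1 and MeRIP 3. Over all regions with scores of 1000 or more in those lists, 1.43% lacked a peak in MeRIP 2 (87 of 6076), and in these genes it was 2 of 15. With 2 regions this is a description of these libraries, and the cause of the absences was not tested. Between the listed peaks on either side in MeRIP 2, 2 numbers were skipped for the AHNAK region and 0 for the MKI67 region. Of the 10 absences only 1, that of the MKI67 region, had no skipped number. The stretches between the listed peaks on either side ran from 3.32 kb for that region to 1096 kb for BRCA2. Only 22.0% to 26.7% of numbers are listed, so a skipped number in a stretch does not show that the region was called. The first BRCA2 region and the AHNAK2 region were weak where present, at scores of 82.2 and of 183 to 232.

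**Figure D3:**
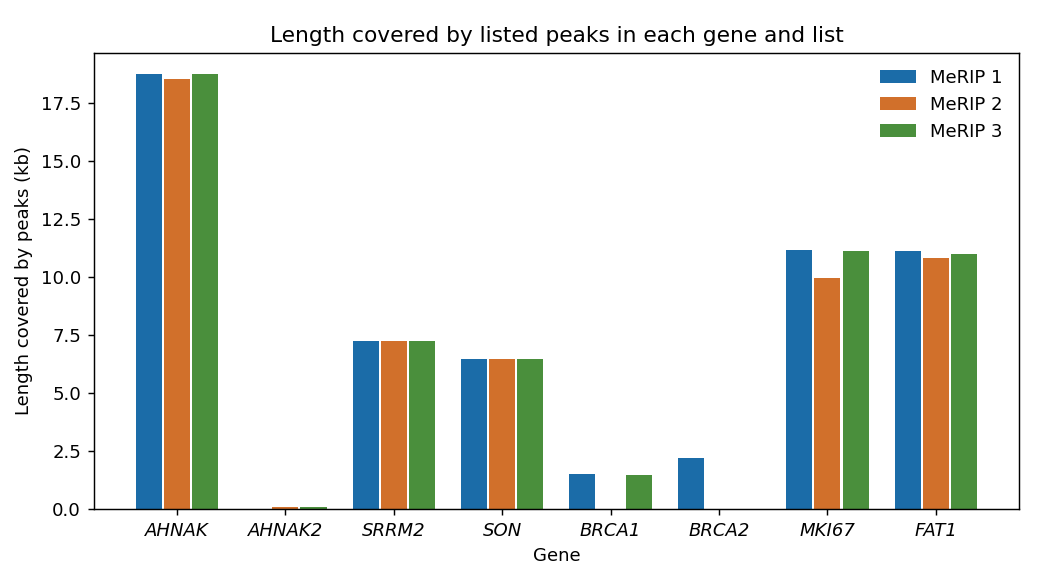
Length in kb covered by listed peaks in each gene, with 1 bar per list and the axis starting at 0. AHNAK stands at 18.5 to 18.7 kb in each list, SRRM2 and SON have equal bars in the 3 lists, MKI67 is lower in MeRIP 2 (9.93 kb) than in MeRIP 1 and 3 (11.1 kb each), and BRCA1, BRCA2 and AHNAK2 have at least 1 list without a peak.

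Edges were then compared between lists. Of the 20 regions with 1 peak in each list 18 (90.0%, 95% Wilson interval 69.9 to 97.2%) had identical edges in all 3, beside 72.7% of such regions in the series. The 18 lay in AHNAK, SRRM2, SON, MKI67 and FAT1. All 6 wide regions had identical edges, against 221 of 652 regions of 3000 bp or more (33.9%, 30.4 to 37.6%) with 1 peak in each list. The identical edges of the AHNAK region were known when the genes were chosen, so none of these shares was tested against the series. Counting also regions seen in 2 lists, 21 of 24 (87.5%, 69.0 to 95.7%) had the same edges in every list that held them. In the series it was 73% of such regions, and this was not tested either.

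The 3 exceptions were of 1 kind. They were the last regions of MKI67, FAT1 and BRCA1, all near the downstream bound, and in each the upstream edge was the same base and the downstream edge moved. For FAT1 the upstream edge was at 187510374 in every list, and the width was 1183 bp in MeRIP 1, 1016 bp in MeRIP 2 and 1200 bp in MeRIP 3. For BRCA1 the width was 1508 bp in MeRIP 1 and 1475 bp in MeRIP 3, from an upstream edge at 41197819. In both MKI67 and FAT1 the peak of MeRIP 2 was the shortest, by 767 bp and 167 bp against MeRIP 1, while MeRIP 1 and MeRIP 3 differed by 19 bp and 17 bp. No region of these genes had a moved upstream edge. How often the downstream edge alone moves over the series was not counted, so this describes 3 regions only.

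Regions touched both ends of the intervals. Within 10 bp of the upstream bound lay a region of AHNAK, SRRM2, SON and FAT1, the last of which began 6 bp outside it. Their scores ran from 177 to 556 in SON, from 626 to 1193 in FAT1 and from 1192 to 1231 in the 2 lists of AHNAK, to 3100 in SRRM2. SON and SRRM2, with regions of nearly equal width there (552 and 518 bp), did not overlap in score. Within 500 bp of the downstream bound lay a region of MKI67, FAT1, BRCA1 and BRCA2, so at these unequal limits FAT1 alone had one at either end. The last FAT1 region stopped 245 bp from the downstream bound. MKI67 had a region 635 bp from the upstream bound and one 5 bp from the downstream bound. These limits of 10 and 500 bp were set after the positions were seen.

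**Figure D4:**
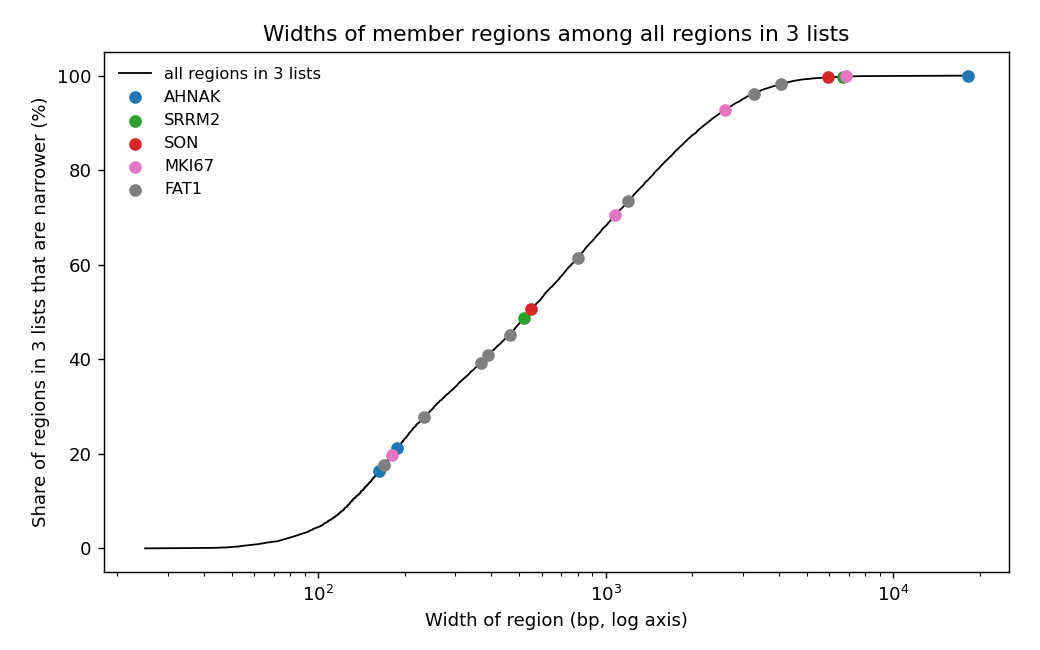
Width in bp (log axis) of the 20 regions found in all 3 lists, against the share of all 15265 such regions that are narrower (line). The regions of the 5 genes run from 163 bp to 18173 bp, with AHNAK at both the narrow and the wide end.

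Widths were set beside those of the series. Among the 15265 regions of the series in all 3 lists the median width was 538 bp, and the 20 of these genes had a median of 677 bp and ran from 163 bp in AHNAK to 18173 bp in the same gene. Under 3000 bp the medians were 426.5 bp for 14 regions of these genes and 500 bp for 14510 of the series. Of those 15265 regions, 29 were wider than the wide SRRM2 region, 25 wider than that of MKI67 and 56 wider than that of SON. The 4068 bp region of FAT1 was wider than 98.2% of them and the 3283 bp region wider than 96.2%. Small regions stood beside wide ones within AHNAK, MKI67 and FAT1. Of regions in all lists, 16.3% were narrower than the second AHNAK region, which nonetheless scored above 1200 in each list. For the 181 bp region of MKI67 this share was 19.8%, and for the 170 bp region of FAT1 17.7%, both with lower scores.

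Scores below the ceiling varied between lists about as much as in the series at large. Of 11 regions below the ceiling in every list, 6 (54.5%) had scores within 2-fold of each other, beside 52.4% of all such regions. The median ratio of highest to lowest score was 1.91 here and 1.94 in the series. No list was highest throughout: MeRIP 1 was on top in 3 of the 11, MeRIP 2 in 4 and MeRIP 3 in 4, and MeRIP 2 was lowest in 5. Over the 11131 such regions of the series MeRIP 1 was highest in 4475, MeRIP 2 in 2732 and MeRIP 3 in 3924, and MeRIP 2 was lowest in 4338.

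Of the intervals themselves, no peak of the opposite strand was centred in any of the 8, and no peak with its centre outside overlapped one. All 8 symbols matched 1 protein-coding gene of the GRCh38.p14 table. Other genes overlap AHNAK2, SON, BRCA1, BRCA2 and FAT1 in that table, and peaks of such a neighbour on the same strand could not be told apart by position alone.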

How the data were processed

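MeRIP-seq libraries (IP and input, 150 bp paired-end reads, 3 repeats) had been processed with cutadapt 1.9.3 and HISAT2 2.0.4 on hg19, per the submitters' processing notes. Peak names carry the word MACS; the version, the settings and the rule for keeping peaks are not stated in the labels or headers. Per repeat, the authors deposited 1 list with a score and, as other columns, the start and end of each peak. Positions are counted from 1.

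The members and lists were chosen with earlier results of these data known. Peaks were assigned to genes by centre and strand, and peaks sharing at least 1 bp on 1 strand were joined. All 8 genes are named; in each, the widest region, regions missing from a list and the region with the widest spread of scores are described, and others by count or range. Scores of 3100 or more count as the ceiling. Shares carry 95% Wilson intervals, for counting error only. No test was run: there is 1 condition, and measured peaks took part in the choice. Alternatives changed assignment, strand, overlap, score threshold, ceiling, edge tolerance and the repeats used. The code was checked on made-up lists. Python 3.11.15, NumPy 2.4.6, pandas 2.3.3, statsmodels 0.14.6 and Matplotlib 3.10.9 were used.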

Additional observations from a re-analysis of the deposited data

How the results depend on the processing

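No paired analysis was possible because the lists give 1 score per peak for IP and input together, with no values per library to pair. Bases covered per list, 55835 in the main setting, were 52800 when peaks under the median score of a list were dropped, and 54568 to 57231 without 1 repeat. Regions at the ceiling in all 3 lists numbered 7, and 13 when a score of 1000 or more was counted instead. Regions in all 3 lists numbered 20 in the main setting, 15 when peaks under the median score of a list were dropped, which uses fewer peaks, and 20 to 23 without 1 repeat, when regions of both remaining lists are counted. Regions with identical edges in all 3 lists numbered 18 in the main setting, 13 with the median threshold and 18 to 20 without 1 repeat. The widest BRCA1 region was 1475 to 1508 bp without 1 repeat. With the median threshold AHNAK2, BRCA1 and BRCA2 had no peak left, and BRCA2 had none without MeRIP 1. Assignment by any overlap, strand ignored and a 50% reciprocal overlap changed none of these values. Absence of a peak does not show absence of m6A, as no read depth was at hand.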
